A study of Mus musculus with 6 samples.

Results

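The high mobility group (HMG) proteins are small, abundant chromatin proteins, and 9 of their genes were followed here by gene symbol: Hmgb1, Hmgb2 and Hmgb3 (the HMGB family), Hmgn1, Hmgn2, Hmgn3 and Hmgn5 (the HMGN family), and Hmga1 and Hmga2 (the HMGA family). Each symbol had 1 row among the 25407 rows of the expression table, and all 9 rows passed edgeR's filter on low counts. RNA came from CT26.WT cells, an established mouse colon carcinoma line, in 3 control libraries and 3 libraries of cells treated with the nanoparticle Cu2O@AuMn@HA, NaHS (a donor of hydrogen sulfide) and NIR (near-infrared light). The agents were combined in the treated group, so the part of each cannot be told apart, and the sources used here give no doses or times. No label ties the libraries of a group to separate cultures, so the p-values measure the spread between these libraries, which may be technical. In bulk RNA, fewer cells of a type and less RNA per cell cannot be told apart.

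HMGB proteins bind and bend DNA through HMG boxes. Hmgb1 has a second role outside the nucleus: released from dying cells, its protein acts as a danger signal on receptors of immune cells. HMGN proteins bind the nucleosome and compete with linker histones, and HMGA proteins bind the minor groove of AT-rich DNA with AT-hooks and are often high in carcinomas. The tables hold RNA levels, and neither protein nor release was measured.

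Libraries held 71409968 to 81821380 estimated counts in control cells and 62328377 to 70323604 in treated cells, with 18681 to 18970 and 20621 to 21059 rows above 0. Of the epithelial markers, Krt18 was at 65.4 ± 5.94 FPKM (fragments scaled by transcript length and library total) in control cells, whereas Epcam and Cdh1, which define epithelium, were listed at 0 in all 3 control libraries and stayed below 0.1 FPKM in treated cells. The 8 epithelial markers summed to 65.8 to 76.0 FPKM across the controls and to 162 to 184 across the treated cells, mostly Krt18, which rose to 163 ± 9.97 FPKM. Only 2 of the 8 had a mean FPKM of at least 1, and of 5 tested, 3 rose and 2 did not pass. The 7 mesenchymal markers summed to 1015 to 1088 and to 1334 to 1417 FPKM, mostly Vim, which rose, whereas 4 of the 7 fell, among them Col1a1 (31.1 ± 0.772 to 15.1 ± 0.938 FPKM) and Col3a1 (11.4 ± 1.06 to 4.13 ± 0.260 FPKM). The immune markers with a row summed to 2.61 to 3.08 FPKM in control and 2.34 to 3.66 in treated libraries, nearly all Lyz2, with Ptprc at 0 in the control libraries. The part of these marker levels in the results below was not tested.

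Among the 9 genes, Hmgb1, Hmgb3 and Hmgn2 fell in treated cells, Hmgn5 rose, and Hmgb2, Hmgn1, Hmgn3, Hmga1 and Hmga2 did not pass the test. The test was edgeR's quasi-likelihood test, 2-sided, with Benjamini-Hochberg adjustment over all 16212 rows tested and a threshold of 0.05. Across all rows, 23.0% were called higher and 23.5% lower (46.6% in either direction), against 1 and 3 of the 9 members. The member counts are therefore close to the background. The groups did not overlap in FPKM for 4 members, 3 lower and 1 higher, and for 57.5% of all rows tested (27.1% lower, 30.4% higher). The median log2 fold change, treated over control, was −0.07 for the members and 0.06 for all rows tested. With upper-quartile scaling, which moved the median of all rows by 0.12, 47.6% of rows were called, 28.9% higher and 18.7% lower.

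**Figure D1:**
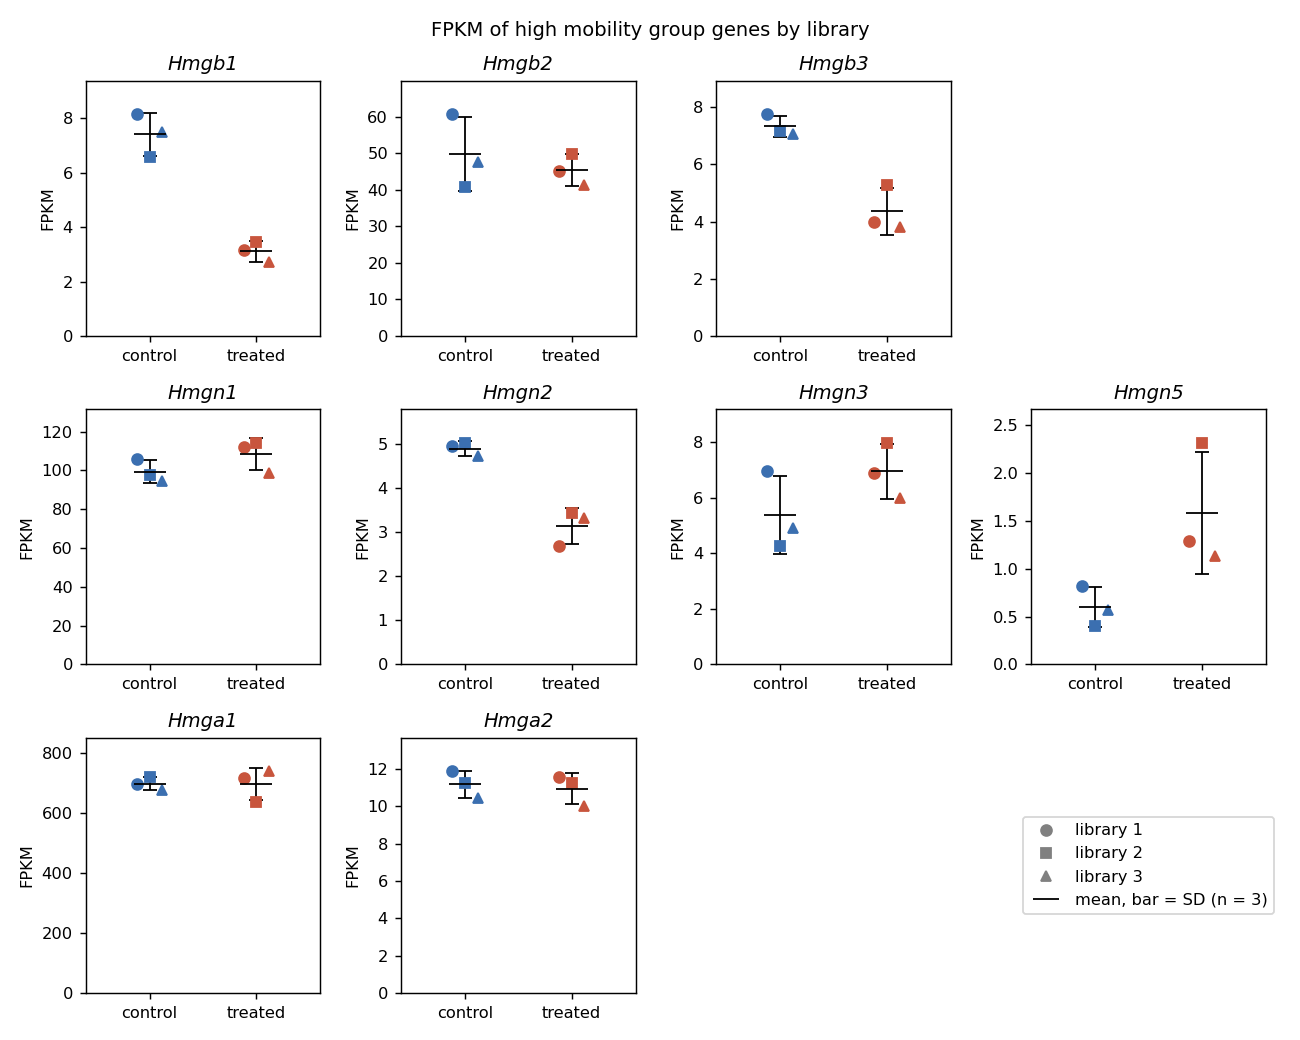
FPKM of each member in the 3 control and 3 treated libraries, with 1 panel per gene, an axis from 0, points for libraries, and the mean with its SD (n = 3). The treated points of Hmgb1, Hmgb3 and Hmgn2 lie below all control points, those of Hmgn5 lie above them, and the groups overlap for the other 5 genes.

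FPKM is scaled to transcript length, so levels of different genes can be set side by side. In control cells, the order of mean FPKM was Hmga1, Hmgn1, Hmgb2, Hmga2, Hmgb1, Hmgb3, Hmgn3, Hmgn2 and Hmgn5. The ranges of Hmgb1 and Hmgb3 overlapped, as did those of Hmgn3 and Hmgn2, and every other pair of neighbours was apart. In treated cells the first 4 genes kept their order. Hmgn3 then stood ahead of Hmgb3, Hmgn2 and Hmgb1, with overlapping ranges only for Hmgn2 and Hmgb1, and Hmgn5 was again the lowest. This order is of single rows and leaves out the counts of rows with nearly the same sequence, described below for Hmgb1, Hmgn2 and Hmga1. In control libraries, Hmgn2 with its related rows had 3664 to 4135 estimated counts, against 1087 to 1326 for its row and 691 to 1042 for Hmgn3, which had no such rows. Estimated counts are not scaled to transcript length.

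Hmgb1 (ENSMUSG00000066551, chromosome 5, 148983512 to 149121299, minus strand, in the coordinates of the deposited file, whose build the sources used here do not name) encodes the DNA-bending protein and danger signal. Its level was 8.15, 6.58 and 7.52 FPKM in control libraries 1, 2 and 3, and 3.16, 3.46 and 2.71 FPKM in treated libraries 1, 2 and 3. Every treated library was below every control library. The mean fell from 7.42 ± 0.791 to 3.11 ± 0.378 FPKM (SD, n = 3). The log2 fold change was −1.29 ± 0.11 (SE; adjusted p = 1.45e-05, edgeR). It passed in all 23 settings tried, and the log2 fold change was −2.001 ± 0.09 (adjusted p = 6.08e-07, edgeR) once counts were corrected for the GC content of transcripts.

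The Hmgb1 row holds a minor part of the estimated counts on rows with its sequence. The gene has many processed copies in the mouse genome. Whether these copies are transcribed, or were given reads of Hmgb1, was not tested. In the table, 34 other rows had transcripts sharing at least 100 words of 50 bases with an Hmgb1 transcript. The most abundant is the predicted gene Gm15387 on chromosome 15, and its coding sequence is shown beside that of Hmgb1 because the copies differ at so few bases that short reads cannot always be assigned to 1 of them. The first 60 bases of both coding sequences, from GENCODE M21 transcripts of GRCm38, are as follows, with the base that differs in capitals.
Hmgb1: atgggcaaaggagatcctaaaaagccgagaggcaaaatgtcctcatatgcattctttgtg
Gm15387: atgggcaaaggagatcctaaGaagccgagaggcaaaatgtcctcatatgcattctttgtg
Counted from 1 at the first base of the start codon, with the base of Hmgb1 first, the difference is A21G. It is the 1 difference between both coding sequences over 645 bases. Gm21596 also differs from Hmgb1 by A21G alone over the 645 bases, and Gm5518 and Hmgb1-ps2, which carry A21G as well, differ at 5 and 12 bases.

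The copies fell or did not pass the test, and none rose. Of the 34 rows, 15 were tested, 8 fell and 7 did not pass, against 23.5% of all rows called lower. Because reads can be split between these rows, they are not independent of Hmgb1 or of each other. Gm15387 went from 87.3 ± 5.21 to 48.6 ± 7.40 FPKM (log2 fold change −0.88 ± 0.11). Hmgb1-ps2, on chromosome X, went from 29.5 ± 1.03 to 14.9 ± 3.14 FPKM (−1.03 ± 0.15), and Gm21596, on chromosome 2, from 20.1 ± 0.932 to 14.6 ± 2.06 FPKM (−0.50 ± 0.11). Gm5518, on chromosome 19, went from 19.6 ± 1.67 to 12.7 ± 2.80 FPKM (−0.66 ± 0.17), and all 4 passed the test without overlap between groups. Gm15387, Gm21596 and Gm5518 were chosen after their values were seen. Among the weaker copies, Hmgb1-ps1 fell (1.12 ± 0.0572 to 0.420 ± 0.1198 FPKM), whereas Hmgb1-ps3 did not pass (3.74 ± 0.513 and 3.25 ± 0.317 FPKM).

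Summing Hmgb1 with its 34 related rows gives a level that depends less on how reads were split among them. The sum was 188, 168 and 173 CPM (estimated counts scaled to the library total) in control libraries 1, 2 and 3, and 99.2, 116 and 85.8 in treated libraries 1, 2 and 3. The groups did not overlap, and the log2 fold change of the sum was −0.89 ± 0.10 (adjusted p = 6.41e-05, edgeR), or −1.61 ± 0.09 with the GC correction. That correction used the GC content of the Hmgb1 transcript (40.1%), although most counts of the sum lie on related rows, such as Gm15387 with 46.6%. In the fit on summed rows, 2 members were called lower (Hmgb1 and Hmgb3) and 1 higher (Hmgn5), against 23.5% and 23.0% of all rows (46.5% in either direction). The Hmgb1 row itself made up 20.8 to 22.98% of the sum in the controls and 16.3 to 17.4% in the treated cells.

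**Figure D2:**
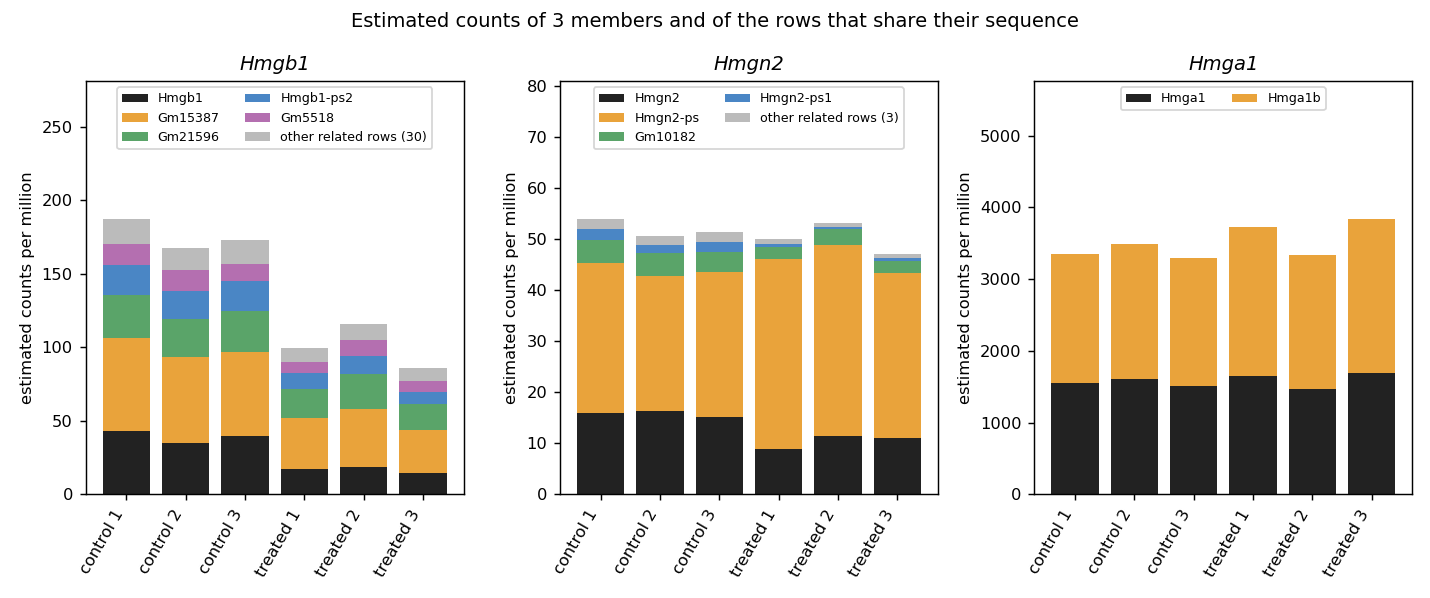
Estimated counts scaled to the library total (CPM, bar height from 0) of Hmgb1, Hmgn2 and Hmga1 in each of the 6 libraries, stacked with the rows that share their sequence, with the number of rows in brackets where several are joined. The Hmgb1 stack is between 168 and 188 in control and between 85.8 and 116 in treated libraries, whereas the Hmgn2 stacks overlap between groups and Hmga1b makes up the larger part of the Hmga1 stack.

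Hmgb2 (ENSMUSG00000054717, chromosome 8, 57964941 to 57969033, plus strand), the HMGB gene linked with dividing cells, had the highest FPKM of its family as a single row. The Hmgb1 copy Gm15387 was at 87.3 ± 5.21 FPKM in control cells, above the Hmgb2 row. Counts summed with related rows were 11319 to 15348 for Hmgb2 and 12358 to 14267 for Hmgb1 in control libraries, which overlap. These counts are not scaled to transcript length, so they do not compare the levels of both genes. The level of Hmgb2 was 60.7, 40.9 and 47.8 FPKM in control libraries 1, 2 and 3 and 45.3, 49.9 and 41.3 FPKM in treated libraries 1, 2 and 3. Control library 1 was the highest, and the groups overlapped. The means were 49.8 ± 10.1 and 45.5 ± 4.30 FPKM, and the difference did not pass the test (log2 fold change −0.16 ± 0.12, adjusted p = 0.302, edgeR). With the GC correction the log2 fold change was −1.004 ± 0.10 (adjusted p = 4.91e-05, edgeR), so the call for Hmgb2 depends on that correction.

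Hmgb3 (ENSMUSG00000015217, chromosome X, 70599524 to 70604282, plus strand), known from stem and progenitor cells, fell. Its level was 7.75, 7.17 and 7.06 FPKM in control libraries 1, 2 and 3, and 3.98, 5.28 and 3.79 FPKM in treated libraries 1, 2 and 3. The control libraries lay close together, treated library 2 was the highest of its group, and the groups did not overlap. The mean went from 7.33 ± 0.372 to 4.35 ± 0.809 FPKM (log2 fold change −0.78 ± 0.15, adjusted p = 0.00172, edgeR). It passed in all 23 settings, with −0.84 ± 0.11 under the GC correction.

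The start sites of the HMGB genes share CCAAT boxes, which is a description of the sequence and not a measured site. The 250 bases before the start of Hmgb1, Hmgb2 and Hmgb3 are shown to compare a gene that did not pass the test with the pair that fell. They are RefSeq sequences of GRCm38.p6, 5′ to 3′ on the gene's strand, at chr5:149053058-149053307 (minus), chr8:57511593-57511842 (plus) and chrX:71555667-71555916 (plus), and capitals mark CCAAT or GGGCGG on either strand.
Hmgb1: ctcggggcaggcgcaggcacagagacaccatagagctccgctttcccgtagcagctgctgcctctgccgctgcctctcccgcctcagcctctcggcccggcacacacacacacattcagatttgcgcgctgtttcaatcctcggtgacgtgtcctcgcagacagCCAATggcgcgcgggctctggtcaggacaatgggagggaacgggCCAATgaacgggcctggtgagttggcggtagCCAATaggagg
Hmgb2: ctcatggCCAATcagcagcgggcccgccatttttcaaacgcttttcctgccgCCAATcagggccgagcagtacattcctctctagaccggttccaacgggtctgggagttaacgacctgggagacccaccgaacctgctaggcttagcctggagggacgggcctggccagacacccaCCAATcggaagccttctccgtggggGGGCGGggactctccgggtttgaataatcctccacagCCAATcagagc
Hmgb3: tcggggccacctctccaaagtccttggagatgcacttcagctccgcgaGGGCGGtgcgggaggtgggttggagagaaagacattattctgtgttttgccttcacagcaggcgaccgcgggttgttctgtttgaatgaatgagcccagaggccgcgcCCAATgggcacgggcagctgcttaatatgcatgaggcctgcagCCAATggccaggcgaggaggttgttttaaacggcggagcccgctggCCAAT
CCAAT occurs 3 times before Hmgb1, 4 times before Hmgb2 and 3 times before Hmgb3, and GGGCGG occurs 0, 1 and 1 times. A second RefSeq start of Hmgb1 has no CCAAT and 4 matches to GGGCGG in the same window. Bases just after the RefSeq start of Hmgb2 were not found in its GENCODE M21 transcripts, whereas Hmgb1 and Hmgb3 had such a match at a start. RefSeq promoters were matched for 8 of the 9 members (Hmgn3 had none), and 5 of the 8 held CCAAT at a start, against 33.85% of 32851 promoters of the same length. GGGCGG was found for 7 of the 8, against 32.74%. A member counted if any of its starts had a match, whereas the percentages are of single windows. The members' windows held 56.4 to 78.8% GC, against a median of 52.4% for all promoters. The letters TTTGAA, searched on both strands, occur 2 times before Hmgb2 and 1 time before Hmgb3, against 15.99% of promoters with a match, and TATAAA (12.37% of promoters) and TGANTCA (6.749%) occur before none of the 8. Nor do TTTCGCGC or TTTGGCGC, the E2F letters (0.6545% of promoters), TGACGTCA, the cyclic AMP element (1.546%), or a heat shock element of GAA, TTC and GAA with NN between them (0.4657%). Both strands were searched for each, and no match says only that these letters are not in the windows.

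Within the HMGB family, the share of Hmgb2 in the summed FPKM was 79.2, 74.8 and 76.6% in control libraries 1, 2 and 3 and 86.4, 85.1 and 86.4% in treated libraries 1, 2 and 3. All treated libraries were above all control libraries. FPKM shares and sums of a family are of the members' own rows, without related rows. Hmgb1 took 11.6 ± 0.815% in control and 5.86 ± 0.186% in treated cells, and Hmgb3 took 11.5 ± 1.52% and 8.18 ± 0.736%, also without overlap. The change in share depended on the unit: for Hmgb1 it was −5.72 percentage points in FPKM, −8.84 in estimated counts and −11.96 in counts summed with related rows, and for Hmgb3 it was −3.34, −2.19 and −0.833. With 3 libraries a group, the exact permutation test (2-sided) cannot go below 0.1, which is the p of all 3 genes, or 0.18 after adjustment over the 9 members. The family sum was 64.5 ± 11.2 FPKM in control and 53.0 ± 5.43 in treated cells, with overlapping ranges (exact permutation p = 0.2).

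Hmgn1 (ENSMUSG00000040681, chromosome 16, 95921818 to 95928929, minus strand) encodes a nucleosome-binding protein that loosens chromatin, and was the most abundant HMGN gene. Its level was 106, 97.7 and 94.4 FPKM in control libraries 1, 2 and 3, and 112, 114 and 98.8 FPKM in treated libraries 1, 2 and 3. The groups overlapped, since treated library 3 was below control library 1. The means were 99.4 ± 6.05 and 108 ± 8.32 FPKM (log2 fold change 0.09 ± 0.08, adjusted p = 0.391, edgeR). It passed only with upper-quartile scaling (0.21 ± 0.07, adjusted p = 0.0390, edgeR).

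Hmgn2 (ENSMUSG00000003038, chromosome 4, 133692049 to 133695961, minus strand), a close relative of Hmgn1, fell in its own row. The row was at 4.95, 5.03 and 4.72 FPKM in control libraries 1, 2 and 3 and at 2.68, 3.43 and 3.32 FPKM in treated libraries 1, 2 and 3. The groups did not overlap, and the mean went from 4.90 ± 0.161 to 3.14 ± 0.404 FPKM (log2 fold change −0.67 ± 0.14, adjusted p = 0.00361, edgeR). Like Hmgb1, the gene has copies: 6 rows shared at least 100 words of 50 bases with it. The first 60 coding bases of Hmgn2 are shown beside those of Hmgn2-ps on chromosome 8, the most abundant copy, because the letters are the same in both.
Hmgn2: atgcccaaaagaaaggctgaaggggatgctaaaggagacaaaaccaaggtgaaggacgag
Hmgn2-ps: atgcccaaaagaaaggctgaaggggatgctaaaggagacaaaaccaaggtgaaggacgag
Over all 270 coding bases of the longest Hmgn2 coding transcript, Hmgn2-ps and Gm10182 had 0 differences, and Hmgn2-ps1 had 6. Even so, all 230 words of 50 bases of Hmgn2-ps1 occur in Hmgn2 transcripts, as do all 224 of Gm10182. The 6 differences therefore do not make reads of Hmgn2-ps1 distinct from those of Hmgn2.

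Calls among the Hmgn2 copies went in both directions. All 6 were tested: 3 fell, 1 rose and 2 did not pass, against 23.5% of all rows called lower and 23.0% called higher. Reads can be split between these rows, so they are not independent of Hmgn2 or of each other. Hmgn2-ps rose from 23.1 ± 1.21 to 28.6 ± 2.36 FPKM (log2 fold change 0.27 ± 0.09, adjusted p = 0.0265, edgeR). Gm10182, on chromosome 9 and chosen after its values were seen, fell from 15.3 ± 1.02 to 8.77 ± 1.28 FPKM (−0.84 ± 0.19), and Hmgn2-ps1 fell from 6.24 ± 1.03 to 1.61 ± 0.145 FPKM (−1.96 ± 0.28). The sum of Hmgn2 and its 6 related rows was 54.0, 50.5 and 51.3 CPM in control libraries 1, 2 and 3, and 50.0, 53.2 and 47.0 in treated libraries 1, 2 and 3. The sums overlapped, and the fall was not called on them (−0.13 ± 0.08, adjusted p = 0.184, edgeR), although with the GC correction as well it was −0.27 ± 0.07 (adjusted p = 0.0125, edgeR). The Hmgn2 row took 29.5 to 32.1% of the sum in control and 17.8 to 23.5% in treated libraries. The call of Hmgn2 thus did not hold for the sum with its related rows, and how reads were assigned among them was not tested.

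Hmgn3 (ENSMUSG00000066456, chromosome 9, 82992001 to 83028658, minus strand), an HMGN gene known from endocrine cells, was at 6.95, 4.28 and 4.91 FPKM in control libraries 1, 2 and 3. In treated libraries 1, 2 and 3 it was at 6.90, 7.98 and 5.999 FPKM. Control library 1 reached into the treated range, and the difference between 5.38 ± 1.40 and 6.96 ± 0.990 FPKM did not pass (log2 fold change 0.34 ± 0.18, adjusted p = 0.158, edgeR). Without control library 1 it passed, at 0.53 (adjusted p = 0.0297, edgeR), and with the GC correction it was 0.07 ± 0.13.

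Hmgn5 (ENSMUSG00000031245, chromosome X, 108048140 to 108057010, minus strand), which encodes the HMGN protein with a long acidic tail, was the member that rose and also the lowest one. Its level was 0.821, 0.404 and 0.569 FPKM in control libraries 1, 2 and 3 and 1.29, 2.32 and 1.14 FPKM in treated libraries 1, 2 and 3. Treated library 2 stood above the other libraries, and the groups did not overlap. The mean went from 0.598 ± 0.210 to 1.58 ± 0.641 FPKM (log2 fold change 1.37 ± 0.34, adjusted p = 0.00771, edgeR). The row rests on 68 to 128 estimated counts per control library and 165 to 342 per treated library. The log2 fold change was 0.69 ± 0.24 with the GC correction (adjusted p = 0.0373, edgeR), and the call was lost in 3 of 23 settings, among them without both libraries numbered 2 (0.79, adjusted p = 0.0721, edgeR).

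The 250 bases before the RefSeq start of Hmgn5 (GRCm38.p6, chrX:109013381-109013630, minus strand) are shown as those of the 1 member that rose, with capitals as above.
Hmgn5: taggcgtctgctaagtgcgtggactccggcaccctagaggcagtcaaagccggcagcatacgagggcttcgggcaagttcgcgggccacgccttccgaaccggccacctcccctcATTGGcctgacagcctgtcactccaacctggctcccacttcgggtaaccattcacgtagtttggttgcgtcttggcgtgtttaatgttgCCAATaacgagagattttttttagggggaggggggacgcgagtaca
The window holds 2 CCAAT boxes, 1 on each strand, and no GGGCGG, so CCAAT boxes stand before members that fell, did not pass and rose.

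Within the HMGN family, Hmgn1 took 90.2 ± 0.831% of the summed FPKM in control and 90.3 ± 0.948% in treated cells (exact permutation p = 0.8). Hmgn2 went from 4.45 ± 0.266 to 2.63 ± 0.430% and Hmgn5 from 0.537 ± 0.157 to 1.30 ± 0.442%, both without overlap and at the smallest p the exact permutation test allows, 0.1. The Hmgn3 share was 4.84 ± 0.940% and 5.78 ± 0.399%, with overlap. The family sum was 110.3 ± 7.55 FPKM in control and 120.04 ± 9.65 in treated cells (exact permutation p = 0.2).

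Hmga1 (ENSMUSG00000046711, chromosome 17, 27775471 to 27782648, plus strand), an AT-hook gene known for high expression in carcinomas, was the most abundant member. Its level was 695, 719.8 and 675 FPKM in control libraries 1, 2 and 3 and 716, 636 and 738 FPKM in treated libraries 1, 2 and 3. The treated libraries spread on both sides of the control range. The means were 697 ± 22.3 and 697 ± 53.6 FPKM (log2 fold change −0.04 ± 0.09, adjusted p = 0.763, edgeR), and the sign of this difference changed with the scaling and with the GC correction. By mean FPKM it ranked 77 of all rows in control cells and 98 in treated cells.

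Hmga1b, on chromosome 11, is a copy of Hmga1, and the first 60 coding bases of both are shown because reads from the coding part of both cannot be told apart.
Hmga1: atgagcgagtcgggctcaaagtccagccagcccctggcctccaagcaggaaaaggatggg
Hmga1b: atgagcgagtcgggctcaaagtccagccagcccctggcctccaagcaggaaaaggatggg
The coding sequences have 0 differences over 321 bases. Hmga1b was at 1065 ± 28.6 FPKM in control and 1156 ± 78.9 in treated cells (log2 fold change 0.08 ± 0.08, adjusted p = 0.445, edgeR), with overlapping groups. Hmga1 took 45.8 to 46.4% of the counts of both rows in the controls and 43.8 to 44.2% in the treated cells. The sum of both had a log2 fold change of 0.03 ± 0.08 (adjusted p = 0.801, edgeR).

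Hmga2 (ENSMUSG00000056758, chromosome 10, 120197180 to 120312374, minus strand), an AT-hook gene of embryonic and tumour cells, was at 11.9, 11.2 and 10.4 FPKM in control libraries 1, 2 and 3. In treated libraries 1, 2 and 3 it was at 11.6, 11.2 and 10.04 FPKM. The groups overlapped almost fully, with means of 11.2 ± 0.727 and 10.95 ± 0.806 FPKM (log2 fold change −0.07 ± 0.08, adjusted p = 0.515, edgeR). It passed in none of the 23 settings. Hmga2 took 1.58 ± 0.0876% of the family's summed FPKM in control and 1.56 ± 0.199% in treated cells (exact permutation p = 1).

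Hmga2 is a textbook target of the let-7 microRNAs, which were not measured here. The mature RefSeq sequence of mmu-let-7a-5p is shown with its seed, bases 2 to 8, in capitals, as the site searched in the members' transcripts.
mmu-let-7a-5p: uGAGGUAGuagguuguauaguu
The 7 letters that pair with the seed, CTACCTC, occur 6 times in the longest Hmga2 coding transcript of GENCODE M21, 4 of them after the stop codon. They occur 1 time in Hmga1 and in none of the other 7 members. Of all protein-coding genes, 20.91% had a match in the longest transcript and 0.05479% had 5 or more.

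The members differ in GC content, and the fold changes of tested rows differed with it. With the rows in 10 bins of equal size by transcript GC content, the median log2 fold change was 0.54 in the lowest bin (22.1 to 43.2%), and in the eighth bin (54.7 to 56.3%) it was −0.23. Hmgb2, Hmgb1 and Hmgn5 have transcripts with 38.7, 40.1 and 40.7% GC, and so fall in the lowest bin, and Hmga1 with 61.4% falls in the highest. The other 5 lie between 44.4 and 47.3%. The lowest bin also varied within groups: it deviated from the group mean by 0.15 in control library 1, −0.16 in control library 2, 0.26 in treated library 2 and −0.20 in treated library 3 (median log2). Hmgb1, Hmgb2, Hmgb3, Hmgn1, Hmgn3 and Hmgn5 were highest in control library 1 among the controls and in treated library 2 among the treated libraries, as was the lowest bin. With the GC correction, 4 members were called lower (Hmgb1, Hmgb2, Hmgb3 and Hmgn2) and 1 higher (Hmgn5), against 26.7% and 23.1% of all rows (49.8% in either direction). The median log2 fold change was then −0.23 for the members and 0.0032 for all rows.

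**Figure D3:**
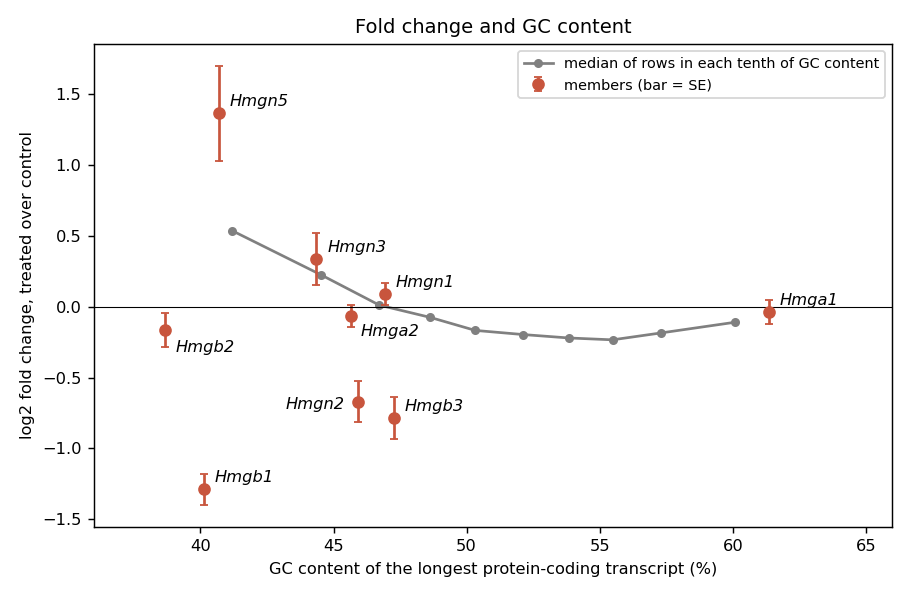
Log2 fold change, treated over control, of the 9 members (points with SE) against the GC content of the longest protein-coding transcript in percent, with the median of all rows in each of 10 GC bins as a line. The line falls from 0.54 to −0.23 in the eighth bin and stands at −0.11 in the highest. Hmgb1 and Hmgb2 lie below it at the low end, while Hmgn5 lies above it.

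**Figure D4:**
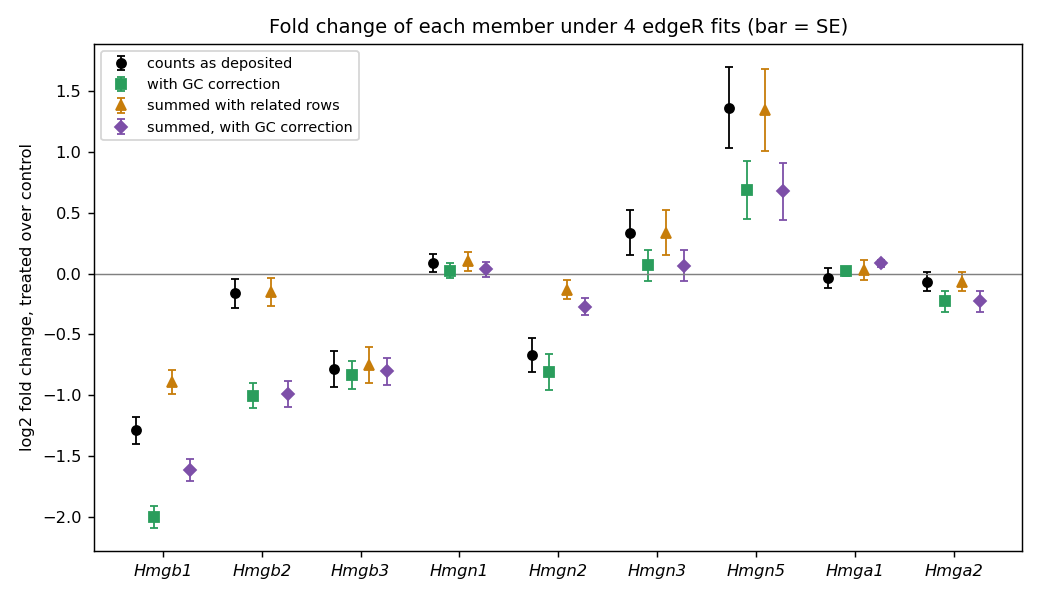
Log2 fold change, treated over control, of each member with its SE in 4 edgeR fits: counts as deposited, with the GC correction, summed with related rows, and both. Hmgb1 and Hmgb3 are below 0 in all 4 fits, Hmgb2 moves from −0.16 to −1.004 with the GC correction, and Hmgn2 moves from −0.67 to −0.13 when summed.

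Other genes of these pathways were taken from lists, with counts read against the same background of 23.0% higher and 23.5% lower. Counts under the GC correction are read against 23.1% higher and 26.7% lower. Among 18 other HMG-box proteins tested, 3 rose, 4 fell and 11 did not pass (median log2 fold change 0.11, against 0.06 for all rows). Ssrp1, the HMG-box subunit of the histone chaperone FACT, fell from 116 ± 0.152 to 68.9 ± 3.55 FPKM (−0.79 ± 0.07). Ubtf, the HMG-box factor of ribosomal RNA genes, fell from 25.9 ± 0.624 to 14.1 ± 0.287 FPKM (−0.91 ± 0.07). The transcription factors Sox9 (3.06 ± 0.212 to 9.35 ± 0.325 FPKM) and Sox4 (3.94 ± 0.350 to 9.23 ± 1.45 FPKM) rose, and Hmg20b, a subunit of a histone demethylase complex, did not pass at 21.5 ± 1.44 and 18.6 ± 1.72 FPKM. After the GC correction, 4 of the 18 rose and 6 fell, Hmg20b among them (−0.21, adjusted p = 0.0237, edgeR).

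Of the receptors and extracellular partners of the HMGB1 protein, 6 of 12 were tested, and 2 rose, 2 fell and 2 did not pass. Tlr4, a receptor of innate immunity, was low and rose from 0.775 ± 0.165 to 2.74 ± 0.905 FPKM (log2 fold change 1.79 ± 0.24, or 0.98 with the GC correction). Havcr2, a checkpoint receptor, rose from 0.358 ± 0.0741 to 1.01 ± 0.242 FPKM. Myd88, the adaptor of Toll-like receptors, fell from 14.7 ± 1.38 to 8.18 ± 0.606 FPKM, and the syndecan Sdc1 fell from 30.9 ± 1.88 to 22.4 ± 1.36 FPKM. Siglecg, a lectin that damps danger signals, was at 6.82 ± 0.646 and 8.31 ± 0.952 FPKM and did not pass, but did with the GC correction (0.40, adjusted p = 0.00743, edgeR), under which 3 rose and 2 fell. Tlr9, Cxcl12 and Cd24a were listed at 0 in control cells and were not tested, and Tlr2, Cxcr4 and Thbd were not analysed here.

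Of 11 genes for modification and nuclear export of the HMGB1 protein, 2 rose, 3 fell and 6 did not pass (median −0.21). Xpo1, the exportin that carries cargo out of the nucleus, rose from 2.89 ± 0.684 to 8.76 ± 1.99 FPKM (log2 fold change 1.57 ± 0.19, or 0.88 with the GC correction). Parp1, which adds ADP-ribose to chromatin proteins, fell from 34.7 ± 1.25 to 19.1 ± 0.511 FPKM. The deacetylase Hdac1 fell from 27.3 ± 0.601 to 17.4 ± 1.06 FPKM and the arginine methyltransferase Prmt1 from 110.2 ± 5.68 to 65.5 ± 4.19 FPKM. Prdx2, a peroxiredoxin, did not pass at 132 ± 4.58 and 116 ± 6.75 FPKM. Under the GC correction, 1 of the 11 rose and 3 fell.

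All 8 other danger signals tested were called changed, 5 up and 3 down (median 0.51), and 4 rose and 2 fell with the GC correction. Among those called up, the groups overlapped for Ppia (153 to 167 FPKM in control, 152 to 385 in treated libraries, adjusted p = 0.0450, edgeR). S100a8, also called up, was near the floor, with 0 to 4 estimated counts per control library and 11 to 24 per treated library. Anxa1, annexin A1, rose from 12.9 ± 2.97 to 66.4 ± 17.8 FPKM (log2 fold change 2.33 ± 0.19), and the cytokine gene Il33 from 0.566 ± 0.149 to 1.10 ± 0.136 FPKM. The correction ended the calls of Il33 (0.47, adjusted p = 0.0775, edgeR) and of Calr, the calreticulin gene (−0.16, adjusted p = 0.0994, edgeR). Hdgf, a growth factor of nuclear origin, fell from 317 ± 8.55 to 205 ± 8.82 FPKM and Sap130, a corepressor subunit, from 9.44 ± 1.04 to 5.97 ± 0.391 FPKM. In the SET complex, which contains Hmgb2 protein, 0 of 5 genes rose and 2 fell: the repair nuclease Apex1 (52.1 ± 2.23 to 25.9 ± 1.13 FPKM) and Nme1 (41.9 ± 3.42 to 35.2 ± 2.22 FPKM). Set itself did not pass, at 53.4 ± 6.11 and 46.7 ± 3.04 FPKM. With the GC correction Set passed (−0.33, adjusted p = 0.00110, edgeR) and Nme1 did not (−0.22, adjusted p = 0.0914, edgeR).

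Of 6 linker histone genes tested, which compete with HMG proteins for nucleosomes, 2 rose, 2 fell and 2 did not pass. H1f2 rose from 16.2 ± 4.86 to 83.1 ± 2.41 FPKM (log2 fold change 2.33 ± 0.16), and H1f0, the linker histone of resting cells, rose from 150.5 ± 9.07 to 222.5 ± 2.99 FPKM (0.53 ± 0.07). H1f4 fell from 2.21 ± 0.190 to 0.311 ± 0.0972 FPKM and H1f5 from 0.880 ± 0.349 to 0.138 ± 0.159 FPKM. H1f10 did not pass, at 3.70 ± 0.381 and 2.75 ± 0.255 FPKM. After GC correction, 2 rose and 4 fell, H1f10 among them (−0.66, adjusted p = 0.00585, edgeR). Most histone messages lack a poly(A) tail, and the libraries were made from poly(A) RNA, so these levels cover the polyadenylated part.

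Of 9 genes that regulate HMGA genes or are regulated by them, 2 rose, 4 fell and 3 did not pass (median −0.11). The cyclin genes Ccnb2 and Ccna2 fell, from 43.0 ± 2.59 to 15.6 ± 1.83 FPKM and from 24.8 ± 1.902 to 11.3 ± 2.43 FPKM. Twist1 and Snai1, factors of the epithelial to mesenchymal transition, rose, from 27.6 ± 0.551 to 57.1 ± 5.17 FPKM and from 15.5 ± 0.749 to 21.8 ± 1.78 FPKM. Smad3 did not pass, at 13.6 ± 0.495 and 15.3 ± 0.756 FPKM. With the GC correction 3 rose, Smad3 among them (0.28, adjusted p = 0.00284, edgeR), and 4 fell.

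Proliferation genes often seen together with Hmgb2 mostly fell. Of 11 tested, 0 rose, 8 fell and 3 did not pass (median −0.97), and 10 fell with the GC correction. Birc5, the survivin gene, fell from 40.4 ± 0.840 to 16.6 ± 0.302 FPKM (log2 fold change −1.32 ± 0.07). Stmn1, which destabilises microtubules, fell from 79.9 ± 5.50 to 30.6 ± 2.77 FPKM, the lamin gene Lmnb1 from 37.1 ± 1.93 to 18.5 ± 0.792 FPKM and Tuba1b from 1573 ± 85.2 to 825 ± 30.0 FPKM. The tubulin gene Tubb5 did not pass, at 1014 ± 40.5 and 949 ± 59.9 FPKM. Whether the fold change of Hmgb2 differs from that of these genes was not tested.

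Of 10 other architectural chromatin proteins, 2 rose, 5 fell and 3 did not pass (median −0.24), and 1 rose and 7 fell with the GC correction. Banf1, which bridges DNA at the nuclear envelope, fell from 121 ± 0.716 to 63.2 ± 4.13 FPKM (log2 fold change −0.98 ± 0.08). The cohesin subunits Rad21 (24.4 ± 1.91 to 16.1 ± 2.97 FPKM) and Smc1a (7.18 ± 0.230 to 4.31 ± 1.04 FPKM) fell. Ctcf, the insulator protein, did not pass, at 5.85 ± 0.318 and 5.34 ± 0.636 FPKM, but did with the GC correction (−0.28, adjusted p = 0.0124, edgeR).

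**Figure D5:**
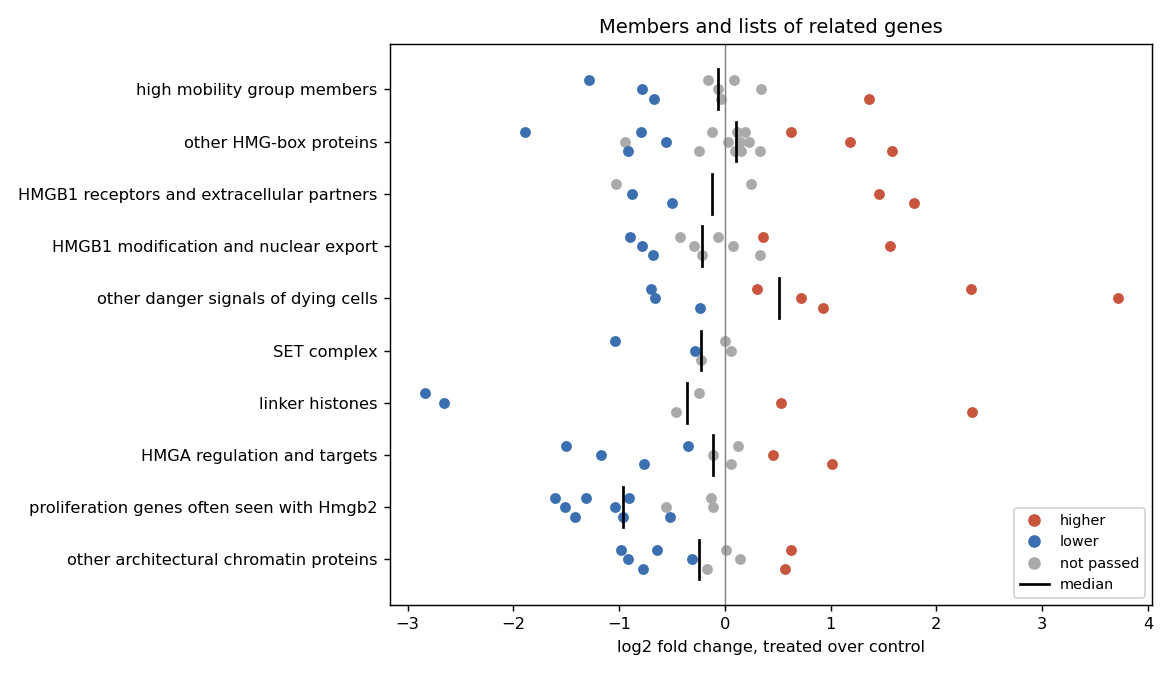
Log2 fold change, treated over control, of each tested gene in the lists, 1 row of points per list, with the median marked. Members of the high mobility group spread around 0, while 8 of the 11 proliferation genes fell.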

How the data were processed

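PolyA RNA of 3 control and 3 treated CT26.WT libraries was sequenced as paired reads from dUTP-marked cDNA, per the labels' protocols. The authors deposited 1 table with an FPKM value and a count per gene and library, per the file headers. The deposited counts are estimated counts in whole numbers, so no rounding was needed, and the value 4 was found 4054 times, more often than 3 and 5 (2539.5 times on average). HISAT2 2.2.1, cutadapt 1.9, edgeR, DESeq2 and StringTie 2.1.6 appear in the submitters' processing notes. Tool roles, genome build, annotation and strand setting were not given in the sources used here, so overlapping and antisense genes are uncertain.

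The test was edgeR 4.0.16 (R 4.3.3) on the estimated counts: filterByExpr, TMM scaling, glmQLFit and glmQLFTest over 16212 of 25407 rows. Alternatives were DESeq2 1.42.0, limma 3.58.1 on log2(FPKM + 1) or log2(FPKM + 0.1), other scalings and filters, counts divided by 4, a loess correction on GC content (span 0.4; longest protein-coding GENCODE M21 transcript, 15760 rows), a replicate block and libraries left out. Summing with related rows (at least 100 shared words of 50 bases) and protein-coding rows only were chosen after the data were seen. Sums were GC-corrected with the GC content of the member's own transcript. On simulated data for treated against control (15907 genes), edgeR recovered 99% of 100 genes changed 2-fold and 100% of 100 changed 4-fold, with 10 false calls. The changed genes were drawn from those with high counts, and all genes had the same dispersion. Far fewer genes changed than the 46.6% of rows called in the data, so these rates do not cover rows with low counts such as Hmgn5. The members and gene lists were chosen with earlier results of these data known. Named genes were all members, related rows by symbol tested at a mean FPKM of at least 1 in a group, and from each list up to 4 genes past the threshold with the smallest p and the most abundant one that did not pass. Calr, Ppia and S100a8 were named as well, for limits of their calls. All columns of sample values were used. A gene that the rule takes is not reported here.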

Additional observations from a re-analysis of the deposited data

How the results depend on the processing

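Over 23 settings, Hmgb1 and Hmgb3 were called lower in every setting, and 3 members were called lower in the deposited counts, 2 after summing with related rows and 4 with the GC correction. The count of members called higher was 1. It became 2 with upper-quartile factors and with summing plus GC correction, 0 for limma on every row above 0, for the block with GC correction and without both libraries numbered 2, and 1 to 2 with each library left out. The fold change of Hmga1 turned positive with upper-quartile factors (0.0891), library totals (0.0401), the GC correction (0.0195), the same with the block (0.0195), without both libraries numbered 2 (0.0809), with summing (0.0285), summing plus GC correction (0.0852, adjusted p = 0.0418, edgeR) and protein-coding rows only (1.34e-05). It ranged from −0.103 to 0.0179 with each library left out. That of Hmga2 turned positive with upper-quartile factors (0.0574) and library totals (0.0108). With each library left out, the change in family share ran from −0.319 to 0.622 percentage points for Hmgn1, −0.0849 to 0.112 for Hmga1 and −0.112 to 0.0849 for Hmga2. The cause of these changes was not tested. Same-numbered libraries had correlations of −0.0209, −0.387 and 0.338 in their deviations from group means. Deviations from a mean of 3 libraries constrain each other, so these values cannot decide whether same-numbered libraries were handled together. The replicate block called 6275 rows against 7548 and changed no call of a member on its own. With the GC correction added, the call of Hmgn5 was lost (0.69, adjusted p = 0.0810, edgeR). Hmgn5 had the lowest counts of the members, 68 to 342 per library, and kept its call with counts divided by 4 (1.37, adjusted p = 0.00496, edgeR).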

Other observations

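Among further loci related to the HMG genes, 2 rose in treated cells and 1 fell. Of 5 rows related to Hmgb2, 1 fell and 4 did not pass. The 1 row related to Hmgn1 rose, and those related to Hmgb3 and Hmgn5 did not pass. Across all rows, 23.0% were called higher and 23.5% lower. Hmga2-ps1, on chromosome 1, rose from 4.81 ± 0.510 to 8.23 ± 0.243 FPKM (SD, n = 3; log2 fold change 0.74 ± 0.13, adjusted p = 0.00136, edgeR), while Hmga2 did not pass. It was related by symbol only: no GENCODE M21 transcript was found for it, so its sequence was not compared with Hmga2. Gm7862, on chromosome 12 and related in sequence to Hmgn1, rose from 5.37 ± 0.937 to 18.9 ± 1.97 FPKM (1.77 ± 0.20), while Hmgn1 did not pass. Gm13237, on chromosome 4 and related in sequence to Hmgb2, fell from 4.27 ± 0.580 to 2.39 ± 0.193 FPKM (−0.87 ± 0.21), while Hmgb2 did not pass. Gm7862 and Gm13237 were chosen after their values were seen. The treated libraries of Hmga2-ps1 and Gm7862 lay above all control libraries, and those of Gm13237 lay below them. Of all rows tested, 30.4% had treated libraries all higher and 27.1% all lower. The difference between locus and member was not tested.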
